A study of Homo sapiens with 6 samples.

Results

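The small nucleolar RNA (snoRNA) host genes examined here are the 30 rows, of 59653 genes in the table, whose symbol is SNHG followed by a number, GAS5 or ZFAS1. The rule used names only and no measured value. RNA was measured in SK-OV3 cells, an established line from a human ovarian cancer, that had received a pool of siRNAs against the long non-coding RNA PVT1 (siPVT1) or a pool of non-targeting siRNAs (siControl), at 50 nM and for 48 h, with 3 libraries for each. Both groups are SK-OV3 cells labelled wildtype that were transfected with siRNA, and each siRNA was tested only as part of its pool. The labels do not say whether the replicates came from separate cultures, so p-values measure the spread between these libraries, which may be technical. Libraries were made from polyadenylated RNA, so the measured molecules are host transcripts and not the mature snoRNAs cut from their introns. Spliced and unspliced host transcripts were not told apart.

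A snoRNA host gene carries snoRNAs in its introns, which are released when the transcript is spliced and guide the modification and processing of ribosomal RNA. The spliced exons of these hosts mostly encode no conserved protein, yet many begin with a 5′ terminal oligopyrimidine (TOP) tract, a C followed by an unbroken run of pyrimidines, as do the mRNAs of ribosomal proteins. Such transcripts are engaged by ribosomes when mTOR signalling is active, and since their reading frames are short, many are degraded by nonsense-mediated decay (NMD) as they are translated. Their level therefore depends on transcription, on translation and on decay, which were not measured separately here.

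The annotated first bases of the hosts that the results turn on are given here, because they decide which hosts count as TOP transcripts. A start was counted as TOP when its first base was C and at least 4 more pyrimidines followed without a break. The capitals mark the pyrimidines that run from a C at the annotated start, 5′ to 3′. The first set gives the commonest transcript start of each gene in GENCODE v44, on GRCh38.
GAS5: CTTTTCgaggtaggagtcga (chr1:173867970-173867989, minus strand)
SNHG29: CTTTTCattcccgttgttat (chr17:16439037-16439056, plus strand)
SNHG26: CTTTTCggccgcggcgcgtg (chr7:22854256-22854275, plus strand)
SNHG12: CCTTTCTCCCCgccgcattc (chr1:28581854-28581873, minus strand)
SNHG8: CTTTCacattcgggaagcgt (chr4:118278758-118278777, plus strand)
ZFAS1: CTTTCgcgtctgcggtgccc (chr20:49278642-49278661, plus strand)
SNHG7: CTCTgcgtgcgccggaggct (chr9:136728165-136728184, minus strand)
SNHG1: CTCatttttctactgctcgt (chr11:62855866-62855885, minus strand)
SNHG16: gttcttttcgaggtcggccg (chr17:76557766-76557785, plus strand)
SNHG17: gtagcttccttgtcgtgtgg (chr20:38435333-38435352, minus strand)
SNHG15: ggcgcagcgcgcggcgtcag (chr7:44986649-44986668, minus strand)

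For SNHG4, SNHG5, SNHG18, SNHG19 and SNHG32 a TOP start was found at the RefSeq start (GRCh38.p14) and not at the commonest GENCODE start. In SNHG18, whose sequence is not shown, the RefSeq start opened a run of 21 pyrimidines. The windows given for the other genes open 10 bases before the annotated start.
SNHG4: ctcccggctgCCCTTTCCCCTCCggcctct (chr5:139274091-139274120, plus strand)
SNHG5: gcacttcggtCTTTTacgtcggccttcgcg (chr6:85678714-85678743, minus strand)
SNHG19: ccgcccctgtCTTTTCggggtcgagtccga (chr16:2155339-2155368, minus strand)
SNHG32: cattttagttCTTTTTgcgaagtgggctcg (chr6:31834906-31834935, plus strand)

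Of the 26 host genes with a RefSeq start in the reference, 7 (26.9%) had a TOP start, beside 4.07% of 35116 RefSeq starts of all genes and 58.2% of 79 starts of ribosomal protein genes. GENCODE gave TOP to 50 of 91 GAS5 transcripts. When a TOP start in RefSeq or at the commonest GENCODE start was enough, 12 host genes were counted as TOP, namely GAS5, ZFAS1, SNHG4, SNHG5, SNHG6, SNHG8, SNHG12, SNHG18, SNHG19, SNHG26, SNHG29 and SNHG32. Only SNHG12 and ZFAS1 had a TOP start both in RefSeq and at the commonest GENCODE start. At other starts, GENCODE also gave TOP to 4 of 9 SNHG4 transcripts, 3 of 89 of SNHG5 and 1 of 4 of SNHG18. The RefSeq starts of GAS5, SNHG8, SNHG26 and SNHG29 were not TOP, and SNHG6 had no RefSeq start. The call depends on which base is annotated as the first: SNHG16 holds cttttc a few bases inside its annotated start and was not counted, and the starts used in SK-OV3 cells were not measured.

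The libraries held between 28383171 and 35059576 counts. PVT1 itself stood at 3289, 4079.7 and 3368 normalized counts in siControl and at 2343.5, 2105 and 2057 in siPVT1, a fall of 0.72 on the log2 scale (SE 0.097), and its groups did not overlap. Of 7 markers checked for this line, PAX8 (1.0), KRT8 (0.32) and KRT18 (0.37) rose on the log2 scale, WT1 (-1.01), KRT7 (-0.51) and ERBB2 (-0.43) fell, and EPCAM (-0.54) did not pass the test. Of 3 markers of other cell types, PTPRC was at 2.02 normalized counts or less in every library, while PECAM1, of endothelial cells, went from a mean of 37.4 to 298 (log2 fold change 2.99, SE 0.131) and COL1A1, of fibroblasts, from 113 to 503 (2.155, SE 0.094). Their part in the changes of the host genes was not tested. The siPVT1 libraries differed more among themselves (chi-square of 9.44 to 50.5 for each degree of freedom, over genes) than the siControl libraries did (1.79 to 6.197), and siPVT1 replicate 3 was the farthest from the others. The cells were measured in bulk, so fewer cells of a type and less RNA per cell cannot be told apart.

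Host genes were mostly lower after PVT1 knockdown, but they did not move as 1 block. SNHG1, SNHG4, SNHG12, SNHG3, SNHG7, SNHG17, SNHG15 and SNHG8 fell at least 2-fold, while GAS5 and ZFAS1 fell less, SNHG29 and SNHG16 showed no change that passed the test, and SNHG18 rose about 4.22-fold. Of the 28 host genes with enough counts to be tested, 14 (50%) were called lower at an adjusted p under 0.05 and 4 (14.3%) higher, where 28.4% of all 19008 genes tested were called lower, 29.5% higher and 57.9% in either direction (edgeR quasi-likelihood test, Benjamini-Hochberg adjustment over all genes). With a change of at least 2-fold required as well, 8 host genes (28.6%) were lower and 1 was higher, against backgrounds of 9.64% and 11.8% (21.5% in either direction). The median log2 fold change was -0.53 over the 28 host genes and 0.0014 over all genes. In 18 host genes every siPVT1 library lay below every siControl library, in 5 every one lay above and in 5 the groups overlapped, where 32.3% and 33.2% of all genes were separate in these directions (65.6% in either). SNHG25 and SNHG27 had too few counts to be tested, with at most 6.04 normalized counts in any library.

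**Figure D1:**
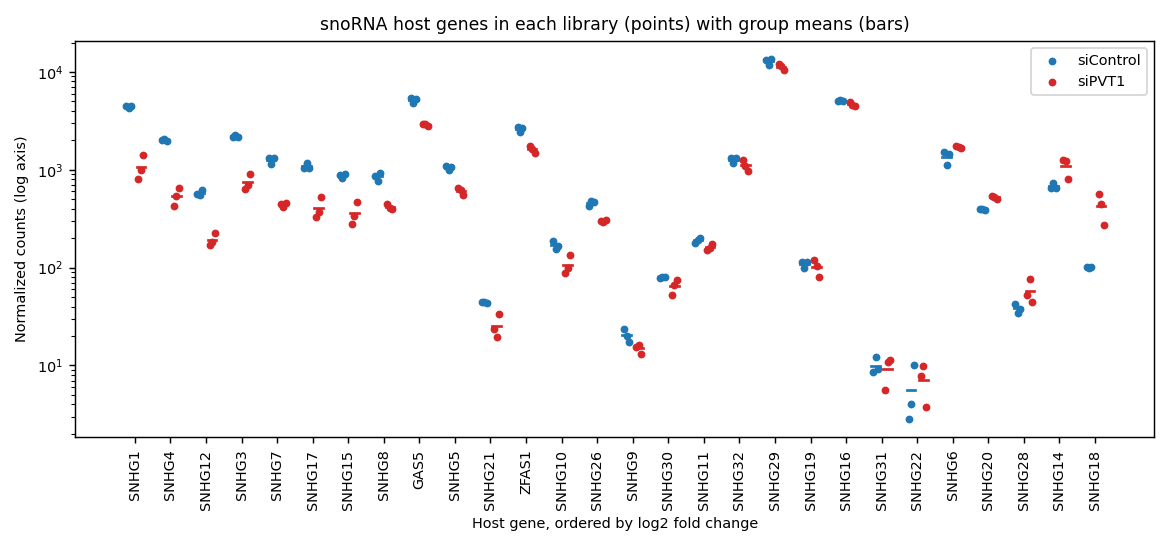
Normalized counts (log axis) of the 28 host genes tested, in order of log2 fold change, with 1 point for each of the 3 siControl and 3 siPVT1 libraries and a bar at each group mean. From SNHG1 at the left to SNHG26 the siPVT1 points lie below the siControl points, in the middle they meet, and SNHG18 at the right is the one host gene with more than a 2-fold rise.

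SNHG1, host to a series of C/D box snoRNAs such as SNORD22 and SNORD25, lies on chromosome 11 (ENSG00000255717.9, chr11:62851978-62855953, minus strand) and had the largest fall of the 28. It stood at 4516, 4256 and 4476 normalized counts in siControl and at 812, 1000.4 and 1404 in siPVT1. The siControl libraries were close together and all well above the siPVT1 libraries, of which replicate 3 was the highest. The log2 fold change was -2.04 (SE 0.174, edgeR adjusted p = 3.15e-05), which left 24.3% of the siControl level.

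SNHG4 (chr5:139274102-139284899, plus strand), host of H/ACA box snoRNAs of the SNORA74 family, stood at 2011, 2069 and 1964 in siControl and at 422, 544 and 649 in siPVT1. Its log2 fold change was -1.90 (SE 0.138, edgeR adjusted p = 1.43e-05), and 626 of its exonic bases (14.0%) are shared on the same strand with MATR3, which fell by 0.34. SNHG12 (chr1:28578538-28583132, minus strand) stood at 565, 557 and 622 in siControl and at 169.9, 181 and 225 in siPVT1. In both genes the groups were far apart, and replicate 3 was again the highest of the siPVT1 libraries. SNHG3, host of SNORA73A and SNORA73B, which take part in the processing of ribosomal RNA, lies near SNHG12 on chromosome 1 (chr1:28505980-28510892) but on the plus strand. It stood at 2163, 2283 and 2148 in siControl and at 632, 698.5 and 898 in siPVT1. The log2 fold changes of SNHG12 and SNHG3 were -1.595 (SE 0.12) and -1.56 (SE 0.122), with edgeR adjusted p-values of 1.67e-05 and 2.07e-05. They differed by 0.032 with a combined SE of 0.171, less than their errors. RCC1, a gene on the strand of SNHG3 that shares 242 of its exonic bases, fell by less (0.75 on the log2 scale, SE 0.131).

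SNHG7 (chr9:136721366-136728184, minus strand) had the smallest adjusted p of the host genes, and its libraries lay close together in each group. Its values were 1332, 1133.5 and 1320.2 in siControl and 452, 419.5 and 461 in siPVT1, a log2 fold change of -1.51 (SE 0.089, edgeR adjusted p = 5.50e-06). SNHG17 (chr20:38419638-38435409, minus strand), which holds snoRNAs of the SNORA71 family, stood at 1053, 1168 and 1053 in siControl and at 328, 370.5 and 522 in siPVT1. SNHG15 (chr7:44983019-44986961, minus strand), host of SNORA9, stood at 882, 831 and 916 in siControl and at 278, 336 and 472 in siPVT1. In SNHG17 and SNHG15 the siPVT1 libraries were spread over a wider range than in SNHG7, with replicate 3 nearest to siControl, and no library overlapped. Their log2 fold changes were -1.42 (SE 0.159) and -1.27 (SE 0.172). SNHG8 (chr4:118278703-118285316, plus strand), host of SNORA24, stood at 874, 761 and 927 in siControl and at 446.5, 411 and 393 in siPVT1. It had the least fall of the 8 (log2 fold change -1.04, SE 0.098, edgeR adjusted p = 5.32e-05), and here replicate 3 was the lowest of the siPVT1 libraries. Without siControl replicate 3 its log2 fold change was -0.978, which left 7 host genes at least 2-fold lower.

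Replicate 3 was the highest siPVT1 library in 7 of these 8 genes and in 10 of the 14 host genes called lower. Over all genes called lower, the same library was the highest in 59.6% (3213 of 5395). Without it, 15 host genes were called lower and 5 higher, and the log2 fold change of SNHG1 was -2.30.

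GAS5, growth arrest specific 5, is the best known of the TOP host transcripts and holds 11 snoRNAs in the RefSeq annotation (ENSG00000234741.10, chr1:173858559-173868882, minus strand). It stood at 5363, 4841 and 5277 normalized counts in siControl and at 2918, 2917 and 2824.5 in siPVT1. The siPVT1 libraries were almost equal and far below siControl, with a log2 fold change of -0.84 (SE 0.061, edgeR adjusted p = 1.485e-05). ZFAS1 (ENSG00000177410.13, chr20:49278178-49299600, plus strand), host of the SNORD12 family, stood at 2735, 2426 and 2667 in siControl and at 1757, 1638 and 1501 in siPVT1. SNHG5 (chr6:85650491-85678932, minus strand), host of SNORD50A and SNORD50B, stood at 1098, 983 and 1078 in siControl and at 654, 624 and 558 in siPVT1. Neither gene had overlapping groups, and the log2 fold changes were -0.68 (SE 0.08) for ZFAS1 and -0.78 (SE 0.086) for SNHG5. SNHG26, host of SNORD93, stood at 424.5, 482 and 469 in siControl and at 299, 294 and 309 in siPVT1 (log2 fold change -0.61, SE 0.086). All 4 of these genes were counted as TOP, GAS5 and SNHG26 by the GENCODE start only and SNHG5 by the RefSeq start only. All 4 fell to between 55.9% and 65.6% of the siControl mean.

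SNHG10 and SNHG21 were the least abundant host genes called lower. SNHG10 stood at 188, 154 and 168 in siControl and at 87.7, 99.2 and 134 in siPVT1, which did not overlap (log2 fold change -0.66, SE 0.172, edgeR adjusted p = 0.0108). SNHG21 stood at 44.6, 44.3 and 43.3 in siControl and at 23.3, 19.6 and 33.7 in siPVT1 (log2 fold change -0.77, SE 0.247, edgeR adjusted p = 0.0264). Its groups did not overlap either, but the call was lost when any siControl library or siPVT1 replicate 1 or 2 was left out, with adjusted p up to 0.0772, and 72.9% of its exonic bases are shared with a second annotated transcript unit.

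The most abundant host gene moved little. SNHG29, which holds SNORD49A, SNORD49B and SNORD65 (chr17:16438767-16480249, plus strand), stood at 13251, 11679.8 and 13649 normalized counts in siControl and at 12112, 11565 and 10352 in siPVT1. The groups overlapped, since siPVT1 replicate 1 exceeded siControl replicate 2, and the log2 fold change of -0.18 (SE 0.083) had an edgeR adjusted p of 0.0954. SNHG16, host of the SNORD1 family, stood at 5011, 5129 and 5083 in siControl and at 4905, 4599 and 4508 in siPVT1. Here the siPVT1 libraries were all lower by a small amount (log2 fold change -0.12, SE 0.057, edgeR adjusted p = 0.104). SNHG32, host of SNORD48 and SNORD52, stood at 1319, 1168 and 1308 in siControl and at 1265, 1092 and 971 in siPVT1, which overlapped (log2 fold change -0.19, SE 0.104). SNHG11, SNHG16, SNHG29 and SNHG32 were called lower, with log2 fold changes between -0.385 and -0.27, when counts were scaled by the library total. That scaling moved the median of all genes to -0.148, and these values are relative to that shift. With TMM normalization they were also called lower in some fits with 1 library left out. Without siPVT1 replicate 1, the edgeR adjusted p was 0.0269 for SNHG16, 0.0277 for SNHG29 and 0.012 for SNHG32. It was 0.0401 for SNHG29 without siControl replicate 2 and 0.0331 for SNHG11 without siPVT1 replicate 3. The other host genes without a call were SNHG9 (-0.45), SNHG30 (-0.30), SNHG11 (-0.235), SNHG19 (-0.12), SNHG31 (-0.09), SNHG22 (0.28) and SNHG28 (0.59), all with means under 200 normalized counts. SNHG28 was called higher without siPVT1 replicate 3 (edgeR adjusted p = 0.0214). Of the exonic bases of SNHG28, 90.8% are shared with a protein-coding gene on the same strand, so its counts are uncertain.

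SNHG18 was the host gene with the largest rise (chr5:9546170-9550725, plus strand, host of SNORD123). It stood at 101, 99.8 and 102 in siControl and at 563, 449 and 271 in siPVT1. The siControl libraries were nearly equal and every siPVT1 library was well above them, although replicate 3 had less of the RNA than the other siPVT1 libraries (log2 fold change 2.08, SE 0.25, edgeR adjusted p = 0.000192). SNHG14, the long transcript of the imprinted Prader-Willi region that hosts the SNORD115 and SNORD116 clusters, stood at 649.6, 725.5 and 654 in siControl and at 1267, 1243 and 803 in siPVT1. It too rose with replicate 3 nearest to siControl (log2 fold change 0.71, SE 0.165, edgeR adjusted p = 0.00652), and SNRPN, which shares 141 of its exonic bases, changed by 0.85 (SE 0.171). SNHG20 stood at 395, 395 and 388 in siControl and at 542, 532 and 498 in siPVT1 (log2 fold change 0.415, SE 0.076). It shares 460 exonic bases, 7.6% of its own, with SEC14L1 on the same strand, which rose too (log2 fold change 1.014, SE 0.075), and the part of shared reads in the rise of SNHG20 was not tested. SNHG6, host of SNORD87, stood at 1519.6, 1131.5 and 1444 in siControl and at 1765, 1709 and 1685 in siPVT1. Its groups were separate, but its call (log2 fold change 0.33, SE 0.107, edgeR adjusted p = 0.0272) was lost without siPVT1 replicate 2, at 0.0636, and with scaling by the library total, at 0.12.

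**Figure D2:**
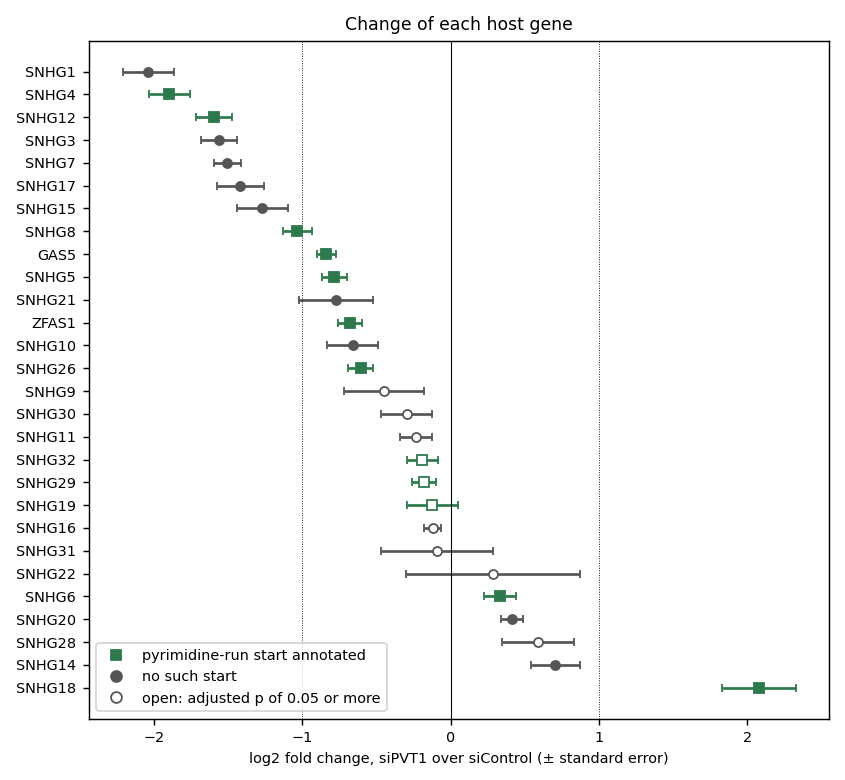
Log2 fold change of siPVT1 over siControl (± standard error) for each host gene tested. Squares are genes with a TOP start in RefSeq or at the commonest GENCODE start, and circles are the others. Open symbols have an adjusted p of 0.05 or more. Squares and circles are mixed between SNHG4 at -1.90 and SNHG14 at 0.71, with the circle of SNHG1 at -2.04 below them and the square of SNHG18 at 2.08 above.

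Hosts counted as TOP and the other hosts were both found among those called lower, those called higher and those not called. Of the 12 counted as TOP, by the RefSeq start or the commonest GENCODE start, 7 were called lower, 2 higher and 3 not called. Their median log2 fold change was -0.64, with a range from -1.90 for SNHG4 to 2.08 for SNHG18. Of the other 16, 7 were called lower, 2 higher and 7 not called, with a median of -0.37 and a range from -2.04 for SNHG1 to 0.71 for SNHG14. Falls of at least 2-fold were found in 3 TOP hosts, SNHG4, SNHG12 and SNHG8, and in 5 others, SNHG1, SNHG3, SNHG7, SNHG17 and SNHG15. These counts are descriptions, and the difference between both sets was not tested. Some hosts not counted as TOP do have a TOP start at another GENCODE transcript. GENCODE gave TOP to 1 of 3 SNHG3 transcripts, 5 of 118 of SNHG17 and 1 of 80 of SNHG1, and to none of SNHG7 and SNHG15. By any GENCODE transcript alone, 17 of the 30 host genes had a TOP start.

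In the order of log2 fold changes, most neighbours could not be separated. The ratio of a host gene to the next one was separate between the groups for 3 pairs of neighbours: SNHG4 and SNHG12, SNHG8 and GAS5, and SNHG14 and SNHG18. Against GAS5 as a fixed point within each library, SNHG5 kept a nearly even ratio, at 0.205, 0.203 and 0.204 in siControl and 0.224, 0.214 and 0.197 in siPVT1. SNHG1, in contrast, went from 0.842, 0.879 and 0.848 counts per count of GAS5 in siControl to 0.278, 0.343 and 0.497 in siPVT1. SNHG29 moved the other way, from 2.47, 2.41 and 2.59 in siControl to 4.15, 3.96 and 3.67 in siPVT1. SNHG6 did likewise, from 0.283, 0.234 and 0.274 to 0.605, 0.586 and 0.597. These ratios do not depend on how libraries are scaled, and they show unequal change among hosts that were all near or above 1000 counts in siControl.

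Summed over the 30 host genes, the normalized counts were 45953, 42769 and 46231 in siControl and 32105, 31189 and 29877 in siPVT1. The siPVT1 libraries held 69.0% of the siControl mean, a log2 difference of -0.53 (exact two-sided permutation test, p = 0.1, the smallest that 3 against 3 libraries can give). As a share of all counts this was a move from between 0.149% and 0.155% of a library to between 0.0909% and 0.0978%. The make-up of the sum also moved. SNHG29 took 27.3% to 29.5% of the host gene counts in siControl and 34.7% to 37.7% in siPVT1, while SNHG1 went from between 9.68% and 9.95% to between 2.53% and 4.70%. GAS5 went from between 11.3% and 11.7% to between 9.09% and 9.45%.

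**Figure D3:**
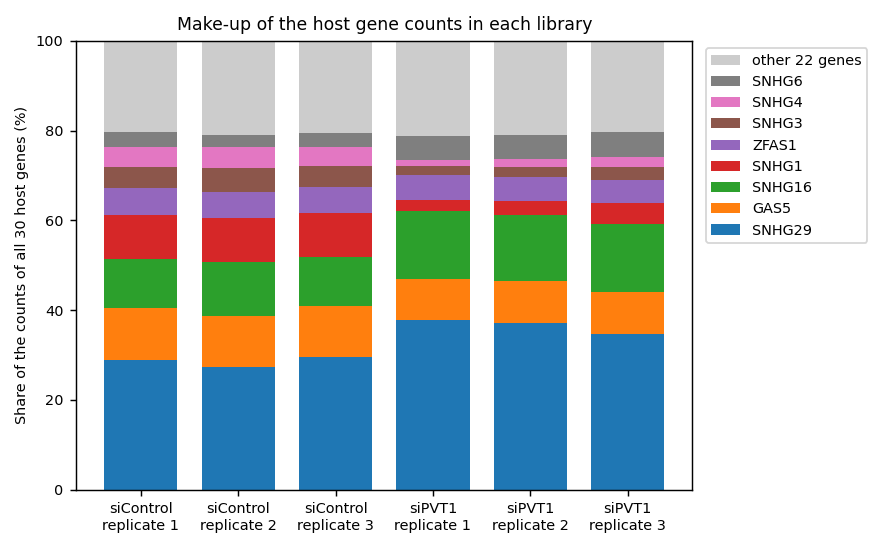
Share of the counts of all 30 host genes (%) taken by the most abundant ones in each of the 6 libraries, with the rest in grey. SNHG29 grows and SNHG1 shrinks in all 3 siPVT1 libraries.

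Levels of different genes were compared roughly, per kilobase of the median GENCODE v44 transcript of each gene. The transcripts used in SK-OV3 cells were not measured, so the order of genes with close values is uncertain. SNHG29 was the highest host gene in both groups, at 12614 normalized counts per kb in siControl and 11126.0 in siPVT1. In siControl it was followed by GAS5 at 7059.7, ZFAS1 at 3804, SNHG1 at 3371, SNHG4 at 2967 and SNHG6 at 2627. In siPVT1 the order below SNHG29 was GAS5 at 3949, SNHG6 at 3309.9, ZFAS1 at 2379, SNHG16 at 1899 and SNHG32 at 1419. SNHG1 and SNHG4 stood at 818 and 793 there, close to SNHG8 at 852.

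Several host genes start next to a gene on the opposite strand, and 8 such pairs with starts within 1000 bases could be compared. Distances in these pairs are between the outermost annotated starts of the genes in GENCODE. These can differ from the commonest transcript starts given above. SNHG1 starts 51 bases from SLC3A2, which encodes the heavy chain of amino acid transporters. SLC3A2 stood at 12738, 11726 and 12858 normalized counts in siControl and at 2924, 3385 and 3502 in siPVT1, a log2 fold change of -1.93 (SE 0.083) beside -2.04 for SNHG1. Both genes of the pair fell, and the log2 ratio of SNHG1 to SLC3A2 overlapped between the groups, with a difference of -0.15, from -1.49 (SD 0.03) to -1.64 (SD 0.283, n = 3, exact permutation p = 0.4). SNHG18 starts 95 bases from SEMA5A, a semaphorin gene, which stood at 206, 143 and 175 in siControl and at 2032.5, 1603 and 1003 in siPVT1. Both rose, SEMA5A by more (log2 fold change 3.14, SE 0.265), and the ratio of SNHG18 to it fell by 1.08 (exact permutation p = 0.1, adjusted over the 8 pairs 0.16).

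In 4 other pairs the ratio of the host gene to its neighbour was separate between the groups, and in GAS5 and ZBTB37 both genes were called, in opposite directions. ZFAS1 starts 248 bases from ZNFX1, which stood at 5256, 5118.5 and 5199.7 in siControl and at 5298, 5449.8 and 5954 in siPVT1 (log2 fold change 0.10, SE 0.062, edgeR adjusted p = 0.196). The ratio of ZFAS1 to ZNFX1 fell by 0.78 and was lower in all siPVT1 libraries. The outermost start of GAS5 lies 800 bases from that of ZBTB37, and the annotated genes overlap there. The commonest GAS5 start, at chr1:173867989, lies outside ZBTB37, which begins at 173868082. ZBTB37 rose slightly (log2 fold change 0.21, SE 0.07), so that the ratio of GAS5 to ZBTB37 fell by 1.04. SNHG9 starts 54 bases from the ribosomal protein gene RPS2, which rose by 0.29 (SE 0.074), and their ratio fell by 0.72. SNHG19 starts 293 bases from TRAF7, which fell by 0.59 on the log2 scale (SE 0.093), and this ratio rose by 0.47. In none of these 4 pairs did the ratios overlap between the groups (exact permutation p = 0.1 for each, the smallest possible, and 0.16 after adjustment). The pairs SNHG22 with ACAA2 and SNHG31 with BARD1 showed ratio changes of -0.026 and -0.21, within the spread of their libraries (exact permutation p = 0.9 and 0.5). The strand setting of the counting is not given in the sources used here, so reads from the overlapping parts of GAS5 and ZBTB37, and of ZFAS1 and ZNFX1, may not be told apart.

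**Figure D4:**
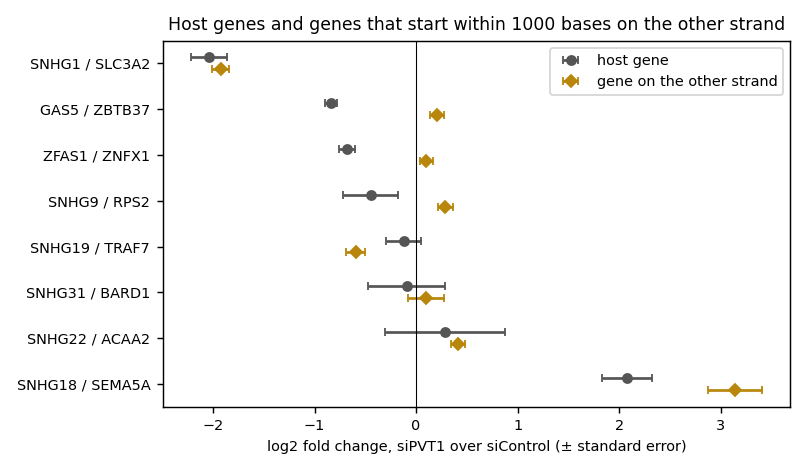
Log2 fold change (± standard error) of 8 host genes (circles) and of the gene that starts within 1000 bases on the opposite strand (diamonds). SNHG1 and SLC3A2 lie together near -2, and GAS5 and ZFAS1 lie to the left of ZBTB37 and ZNFX1, which are near 0.

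Among the non-coding snoRNA hosts with other names, DANCR, host of SNORA26, stood at 924, 830.2 and 892 in siControl and at 199, 191 and 235 in siPVT1 (log2 fold change -2.08, SE 0.102, edgeR adjusted p = 2.49e-06). This was a fall of the size of that of SNHG1, and no library overlapped. EPB41L4A-AS1 stood at 549, 486 and 562 in siControl and at 349, 352 and 341 in siPVT1, close to the change of SNHG26 (log2 fold change -0.62, SE 0.086). MEG8 had too few counts to be tested.

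Protein-coding genes that carry snoRNAs in their introns were mostly lower as well. Of 21 tested, 17 were called lower and 2 higher (TOMM20 and RACK1), with a median log2 fold change of -0.55, and 5 fell at least 2-fold. These were HSPA8, a constitutive chaperone (-1.97, SE 0.199), NOP56 (-1.49, SE 0.217), DKC1 (-1.35, SE 0.198), NOP58 (-1.13, SE 0.201) and WDR43 (-1.11, SE 0.121). NOP56 and NOP58 are core proteins of C/D box snoRNPs and DKC1, dyskerin, is the pseudouridine synthase of H/ACA box snoRNPs, so these genes also stand among the snoRNP proteins. Of those 8 proteins, 5 were called lower and none higher, with GAR1 at -1.15 (SE 0.216), while FBL, the methyltransferase of C/D box snoRNPs, did not pass the test (0.16, SE 0.072, edgeR adjusted p = 0.0895). Of 10 factors that assemble snoRNPs, 5 were called lower, including NUFIP1 (-1.34), SHQ1 (-1.32) and NOLC1 (-1.29), and 1 was called higher, PIH1D1, a member of the R2TP complex (1.28, SE 0.071). Beside these counts, 28.4% of all genes were called lower, 29.5% higher and 57.9% in either direction. Falls of at least 2-fold were found in 9.64% of all genes.

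Ribosomal protein mRNAs, the main class of TOP transcripts, were mostly higher. Of 80 tested, 52 were called higher and 4 lower, with a median log2 fold change of 0.28, where 29.5% of all genes were called higher and 28.4% lower. The 4 were RPL41, which went from 20499.9 to 1742 normalized counts (-3.56, SE 0.106), RPLP0, from 45098 to 15227 (-1.57, SE 0.083), RPLP1 (-0.24, SE 0.08) and RPL3L, a little expressed form with a mean of 16.96 in siControl and 0 in every siPVT1 library, at least 5.41-fold lower against a floor of 3 counts per library. With scaling by the library total, 30 ribosomal protein genes were called higher and 9 lower. The other 16 TOP mRNAs, of translation factors and the like, had 6 called higher, such as TPT1 (0.50), and 2 lower, NPM1 (-0.32) and EEF2 (-0.30), with a median of 0.10, and in either direction their 8 calls of 16 were a smaller share than the 57.9% of all genes. Medians of -0.53 for the non-coding hosts and 0.28 for ribosomal protein genes, both of which hold many TOP starts, stand beside 0.0014 for all genes.

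Factors of NMD and regulators of TOP translation were mostly lower. Of 19 NMD factors, 14 were called lower and 2 higher (NBAS and PNRC2), beside 28.4% and 29.5% of all genes, with a median of -0.46. The number called higher fell to 0 with scaling by the library total and without any 1 of siControl replicates 1, 2 and 3 and siPVT1 replicate 2. UPF1, the central helicase of NMD, stood at 2794, 2686 and 2841 in siControl and at 2017, 1949.5 and 2176 in siPVT1 (log2 fold change -0.44, SE 0.064), and DHX34 fell furthest (-1.685, SE 0.095). Of 13 regulators of TOP transcripts, 11 were called lower and none higher, with a median of -0.55. LARP1, which binds the TOP tract and holds these mRNAs in a stable and untranslated form, stood at 19196, 20161 and 19401 in siControl and at 8916, 9288 and 10515 in siPVT1 (log2 fold change -1.03, SE 0.073, edgeR adjusted p = 1.25e-05). EIF4EBP2, a translation repressor downstream of mTOR, changed by -1.12 (SE 0.074). The part of these factors in the levels of the host genes was not tested.

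**Figure D5:**
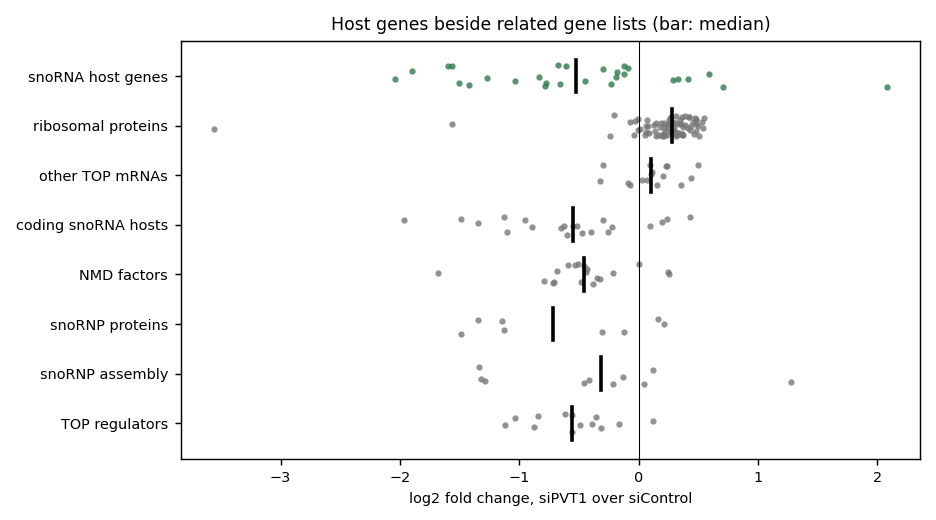
Log2 fold changes of the host genes and of each related list, with 1 point per gene tested and a bar at the median; RPL3L, with no count in siPVT1, enters the median but is not drawn. The medians of the non-coding and coding snoRNA hosts, of NMD factors and of snoRNP proteins are below 0, and that of ribosomal proteins is above 0.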

How the data were processed

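RNA-seq was analysed in 3 siControl and 3 siPVT1 libraries of SK-OV3 cells, and each library was placed in its group by its label, with the dose and time from the study's methods. The authors aligned single-end reads with STAR 2.7.3a and deposited estimated counts per gene symbol from Salmon 0.14.1, as whole numbers without normalization (versions per the submitters' processing notes, build GRCh38.p13). Where transcripts share sequence, Salmon assigns reads by an estimate, so counts of overlapping genes are uncertain. The depth was 28383171 to 35059576 counts per library.

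The quasi-likelihood test of edgeR 4.0.16, in R 4.3.3, was applied to these counts after TMM normalization. It covered the 19008 genes that reached 5 normalized counts in 3 or more libraries. The p-values were adjusted by Benjamini-Hochberg over all of them. For single genes, "rose", "fell" and "called" mean an adjusted p under 0.05, and falls of at least 2-fold also need an absolute log2 fold change of 1 or more. For the ratio of a host gene to its neighbour, "rose" and "fell" give the direction only. The SE is the absolute log2 fold change over the square root of F. In simulated data with 200 genes changed by 2 on the log2 scale, the test recovered 88% of them and called 5 unchanged genes, and it recovered 100% of those with a mean of at least 50 counts. The simulation gave both groups the same spread and changed 200 of 19008 genes. In the data the siPVT1 libraries varied more and 57.9% of genes were called, so these rates may not hold there. Smaller changes were not simulated.

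All host genes are named, with their divergent or overlapping neighbours, PVT1, DANCR, EPB41L4A-AS1, MEG8, LARP1, UPF1, FBL and, from each list, genes past both thresholds, at most the 4 with the smallest p in each direction; the other genes of lists and the markers were named after their values were seen. The members and lists were chosen with earlier results of these data known. Gene positions and starts came from GENCODE v44 and RefSeq, matched by symbol. Alternatives were DESeq2 1.42.0, its size factors, scaling by the library total, no filter, filterByExpr, the replicate number as a block, and each library left out.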

Additional observations from a re-analysis of the deposited data

How the results depend on the processing

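The count of host genes called lower was 14 and higher 4 with DESeq2, with its size factors in edgeR, without a filter, with filterByExpr and with the replicate number as a block, 18 and 3 with scaling by the library total, and 13 to 16 and 3 to 5 when a library was left out. Those at least 2-fold lower were then 7 to 9, with 7 without siControl replicate 3, where SNHG8 stood at -0.978. Of the log2 fold changes of single host genes under these alternatives, 311 kept their direction and side of the threshold, 10 gained a call, 7 lost one and 4 changed direction. Those that changed direction were of genes without a call: with 1 library left out, SNHG19 ranged from -0.269 to 0.011 (without siPVT1 replicate 3), SNHG22 from -0.039 (without siControl replicate 1) to 0.593, and SNHG31 from -0.28 to 0.068 (without siControl replicate 2) and 0.142 (without siPVT1 replicate 1). The log2 difference of the ratio of SNHG22 to ACAA2 ranged from -0.379 to 0.429, with 0.429 without siControl replicate 3 and 0.337 without siPVT1 replicate 3. The cause of these changes was not tested.

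Scaling by the library total moved the log2 difference of the host gene sum to -0.684 and the share of lower among all called genes from 49.0% to 60.6% (6879 lower and 4477 higher). It gave 9 ribosomal protein genes lower and 30 higher, 5 other TOP mRNAs lower and 3 higher, 1 coding snoRNA host higher and 0 NMD factors higher. With DESeq2 size factors, 1 NMD factor was higher. With the replicate block, 1 NMD factor and 1 snoRNP protein were higher and all genes gave 5150 lower and 5296 higher. When a library was left out, ribosomal proteins lower ranged from 2 to 5, other TOP mRNAs lower from 1 to 2, coding hosts higher from 1 to 3, NMD factors higher from 0 to 2 and snoRNP proteins higher from 0 to 1. Same-numbered libraries did not deviate together (correlations of -0.032 to 0.021), so the replicate number was not taken to pair them. With 3 libraries a group and TMM normalization, small changes such as that of SNHG16 were not separated from 0. Host genes with under 50 counts are the least precise.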

Other observations

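Mature snoRNAs are short and lack a poly(A) tail, and the libraries held almost none. Of 157 snoRNA genes inside the host genes, 138 had a row in the table, and 117 of these were at 0 in every library. Their counts summed to 347 over all libraries, beside 230419 for the host genes. SNORD22, in an intron of SNHG1, had 22, 28 and 32 counts in siControl and 0, 7 and 3 in siPVT1 (log2 fold change -2.87, SE 0.623, edgeR adjusted p = 0.00446). SNORA73B, in SNHG3, had 25, 22 and 27 counts in siControl and 7, 5 and 5 in siPVT1 (log2 fold change -1.97, SE 0.309). SNORA71B, in SNHG17, had 18, 20 and 12 in siControl and 11, 5 and 12 in siPVT1, which overlapped at 12, and did not pass the test (log2 fold change -0.72, SE 0.395, edgeR adjusted p = 0.151). In SNORD22 and SNORA73B every siPVT1 library was lower than every siControl library, as in their hosts. Whether such reads came from mature snoRNAs or from unspliced host transcripts was not tested.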
